A study of Homo sapiens with 12 samples.

Results

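Aldo-keto reductases are soluble enzymes that use NADPH to reduce aldehydes and ketones to alcohols. The genes described here are AKR1A1, AKR1B1, AKR1B10, AKR1C1, AKR1C2, AKR1C3, AKR7A2 and AKR7A3, which are 8 of the 25528 rows in the deposited expression table. They were picked by gene symbol from a list drawn up with the fold changes of both comparisons below already known, above all the fall of AKR1B10 with the APC hairpin. For that reason the members' own values are given as a description, without p-values, and nothing is supported by how many of them moved. Whether a member passed the threshold applied to all genes, and so was called, is stated only to describe its change beside its spread. Since these same comparisons chose the members, no such call is a test of them.

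All 12 RNA-seq libraries came from HT-29 cells, a widely used cell line from a human colon adenocarcinoma whose APC gene is mutant in every group, and all cells were infected with lentivirus. In the first pair of groups the virus carried an open reading frame, either GFP as the control or CTNNB1, the gene for beta-catenin, and cells were harvested on day 2 after infection. In the second pair it carried a short hairpin RNA, either the control shNT1 or one against APC (shAPC), harvested 1 day after hairpin expression was switched on with 2 µM doxycycline. Each group has 3 libraries, and the labels do not say whether these are separate cultures, so p-values measure only the spread between these samples. Levels are TPM (a transcript abundance corrected for gene length, with libraries set to a common total). TPM keeps no record of read depth, so the depth behind each value is unknown. CTNNB1 against GFP is called the CTNNB1 arm below and shAPC against shNT1 the APC arm. The arms differ in vector, collection day and doxycycline, so these cannot be told apart in any difference between the GFP and shNT1 controls.

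Aldo-keto reductases clear reactive carbonyls that arise from lipid peroxidation and sugars, and several act on retinoids, steroids and prostaglandins. Many are targets of NRF2, the transcription factor encoded by NFE2L2, which KEAP1 holds for degradation until oxidants or electrophiles release it. AKR1B10 is best known for reducing retinal to retinol and is normally found in the small intestine and colon.

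The perturbed genes and cell markers were checked once. APC averaged 16.4 ± 0.8 TPM with shNT1 and 5.99 ± 0.56 with shAPC (SD, n = 3), a log2 fold change of -1.32 (limma, Benjamini-Hochberg adjusted p = 6.1e-06). CTNNB1 averaged 146 ± 2.9 TPM with GFP and 160 ± 4.2 with the CTNNB1 virus (log2 0.13, limma adjusted p = 0.059), so the rise of its own row did not pass the test. The beta-catenin target AXIN2 rose by 1.04 and 1.59 on the log2 scale in the CTNNB1 and APC arms (limma adjusted p = 3e-06 and 3.5e-07), and LGR5, another such target, rose by 1.38 and 1.21 (limma adjusted p = 3.8e-06 and 2.4e-05). Of 10 colon epithelial markers, 8 averaged at least 1 TPM. CDX1 and CDX2 did not, with group means of CDX2 from 0.257 to 0.758 TPM. The summed colon markers ranged from 10900 to 11000 TPM with GFP, 12300 to 12400 with CTNNB1, 8690 to 10500 with shNT1 and 8600 to 9520 with shAPC. Most of the sum is KRT8 and KRT18, and single markers moved otherwise. CEACAM5 averaged 26.7 TPM with GFP, 12.3 with CTNNB1, 11 with shNT1 and 4.02 with shAPC. KRT20 averaged 139, 138, 106 and 69.3 TPM in these groups and KRT19 591, 510, 452 and 337. Others went otherwise, with VIL1 at 81.5, 113, 101 and 97.0 TPM, CDH1 at 325, 322, 342 and 272 and EPCAM at 1670, 1750, 1480 and 1450. The markers thus differed between groups as well, and their part in the results below was not tested. None of 5 fibroblast and 4 endothelial markers reached 1 TPM. Among leukocyte markers LYZ and CD14 did so, while PTPRC and CD3E were at or near 0. LYZ averaged 6510 TPM with GFP, 7280 with CTNNB1, 6890 with shNT1 and 7530 with shAPC. That is above KRT18, at 4700, 5710, 3990 and 4120 TPM. CD14 averaged 2.28, 2.44, 2.56 and 2.53 TPM. Of 4 liver markers only SERPINA1 reached 1 TPM, and ALB was listed at 0. In bulk RNA, fewer cells that express a gene and less RNA per cell cannot be told apart.

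AKR1B10 was the most abundant member with GFP, and it fell to 0.419 times its control mean with CTNNB1 and to 0.368 times with shAPC. With GFP the 3 libraries read 528, 506 and 508 TPM, and with CTNNB1 203, 208 and 235. With shNT1 they read 255, 249 and 282, and with shAPC 97.5, 99.1 and 93.4. Every library of a perturbed group lay below every library of its own control, and the spread within a group was small beside the gap. Group means were 514 ± 12 and 215 ± 18 TPM in the CTNNB1 arm and 262 ± 18 and 96.6 ± 3.0 in the APC arm (SD, n = 3). These are means 58.1% and 63.2% lower. On the log2(TPM + 1) scale used for every fold change here, the differences were -1.25 (SE 0.06, 95% interval -1.38 to -1.12) and -1.43 (SE 0.06, 95% interval -1.56 to -1.3). The intervals of the arms overlap, and the difference between them was 0.18 with an interval from -0.01 to 0.36.

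The order of AKR1B10 levels over the groups was GFP, shNT1, CTNNB1, shAPC, and no neighbours in that order overlapped. The controls were thus themselves apart, GFP being 1.96 times shNT1. By its mean over all 12 libraries, 272 TPM, AKR1B10 ranked 542 among the 25528 rows.

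**Figure D1:**
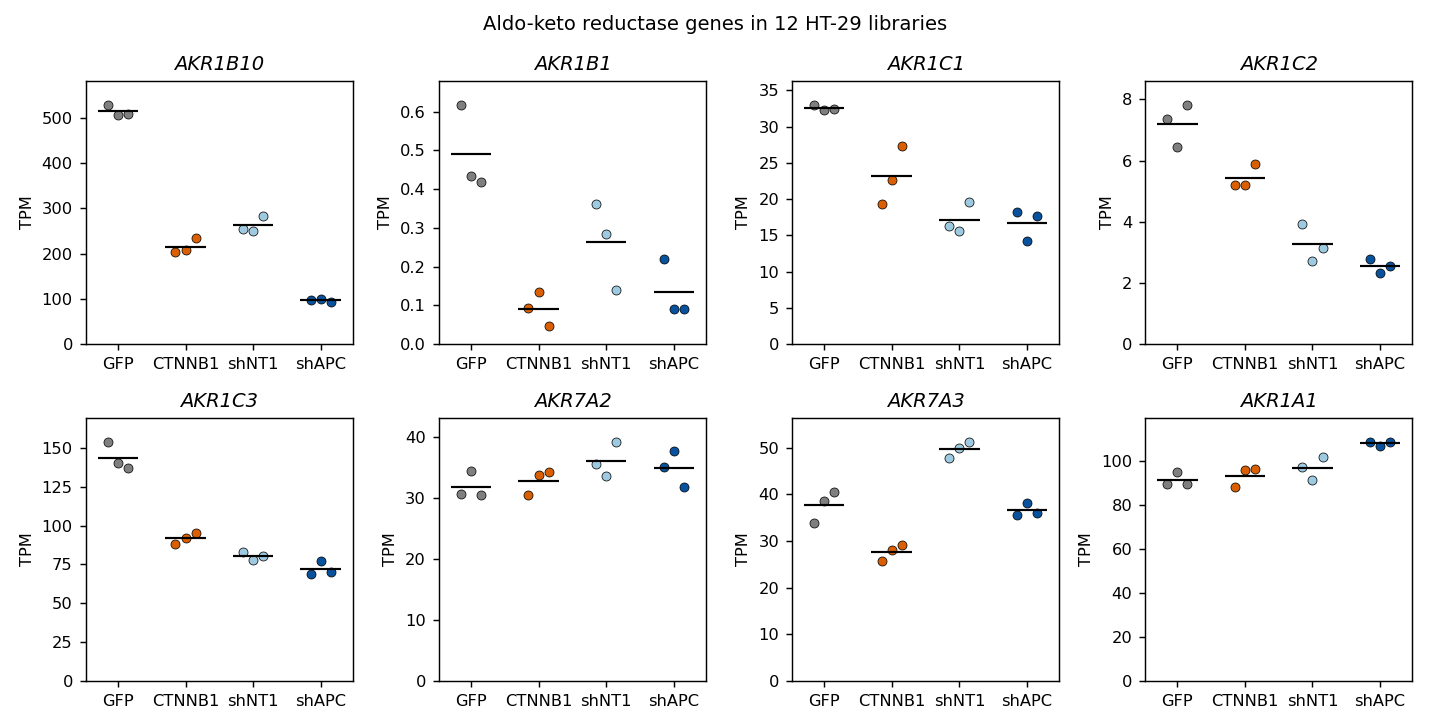
Level of each of the 8 genes in every library (TPM, 1 panel per gene, each with its own axis from 0), grouped as GFP, CTNNB1, shNT1 and shAPC. Points are libraries and horizontal lines are means of 3; AKR1B10 separates all 4 groups, from 93.4 to 528 TPM, while the AKR7A2 groups overlap.

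AKR1B10 lies at chr7:134527567-134541412 (ENSG00000198074, RefSeq annotation of GRCh38.p14), between AKR1B1 and AKR1B15. AKR1B1 (ENSG00000085662, chr7:134442350-134459239) encodes aldose reductase, which turns glucose into sorbitol, and it ends 68.3 kb from AKR1B10. Their coding sequences are identical at 76.4% of aligned positions. The opening of each coding sequence, bases 1 to 90 from the start codon, is shown because reads can be told apart between like genes only where their sequences differ (GENCODE v29 transcripts). Capitals mark the 30 bases of AKR1B1 that differ from AKR1B10.
AKR1B10: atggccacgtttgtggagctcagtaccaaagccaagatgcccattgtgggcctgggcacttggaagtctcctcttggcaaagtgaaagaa
AKR1B1: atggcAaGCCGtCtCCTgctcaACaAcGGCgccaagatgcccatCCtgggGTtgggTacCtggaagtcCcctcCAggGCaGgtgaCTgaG

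No run of 50 bases is shared by the AKR1B10 and AKR1B1 coding sequences. AKR1B15, which lies 7.7 kb beyond AKR1B10, is the closer relative, with 85.1% identity and 19.8% of the 50-base runs of AKR1B10 in common. AKR1B15 was listed at 0 in 11 of 12 libraries and at 0.0544 TPM in the other, and summing it with AKR1B10 left the fold changes at -1.25 and -1.43. How the authors assigned reads shared by like genes is not given in the sources used here.

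AKR1B1 stood at the other end of the range. Its GFP libraries read 0.617, 0.434 and 0.419 TPM and its CTNNB1 libraries 0.0941, 0.135 and 0.0471. The shNT1 libraries read 0.361, 0.285 and 0.141 TPM and the shAPC libraries 0.219, 0.0902 and 0.0911. The groups of the CTNNB1 arm did not overlap and those of the APC arm did. AKR1B1 was left out of the tests in both arms by the requirement of a mean of at least 1 TPM over the libraries compared, so neither arm has a call for it. Without that requirement its log2 fold changes were -0.45 (SE 0.06) and -0.15 (SE 0.08), which the pseudocount of 1 compresses at such levels. The authors' deposited table gives -2.27 for AKR1B1 in the CTNNB1 arm and lists it as changed, and their deposited APC table gives -0.83 and does not.

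The AKR1C genes encode hydroxysteroid dehydrogenases. AKR1C1 inactivates progesterone, AKR1C2 inactivates dihydrotestosterone, and AKR1C3 makes testosterone from androstenedione and also forms prostaglandin F. All of them fell in the CTNNB1 arm and none passed the test in the APC arm. They sit side by side on chromosome 10, AKR1C1 at chr10:4963415-4983283 (ENSG00000187134), AKR1C2 at chr10:4987775-5018000 (ENSG00000151632) and AKR1C3 at chr10:5048781-5107686 (ENSG00000196139), with gaps of 4.5 and 30.8 kb. Their first 90 coding bases show how little separates them. Capitals mark bases that differ from AKR1C1, 1 in AKR1C2 and 11 in AKR1C3.
AKR1C1: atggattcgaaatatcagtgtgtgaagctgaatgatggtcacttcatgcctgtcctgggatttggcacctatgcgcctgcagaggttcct
AKR1C2: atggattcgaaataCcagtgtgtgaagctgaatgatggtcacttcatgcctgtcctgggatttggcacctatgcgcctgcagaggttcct
AKR1C3: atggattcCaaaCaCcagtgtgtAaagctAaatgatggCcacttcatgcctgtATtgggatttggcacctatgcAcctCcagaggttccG

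Over the whole coding sequence AKR1C1 and AKR1C2 match at 950 of 969 positions, 98.0%, and 51.6% of the 50-base runs and 18.9% of the 100-base runs of AKR1C1 occur in AKR1C2. AKR1C3 is more distinct, with 91.4% identity to AKR1C1 and 14.7% of 50-base runs in common. The separate levels of AKR1C1 and AKR1C2 are therefore uncertain, and the sum of the group is given below as well. The rest of their transcripts, which have 6705 and 3756 bases in all, also yields reads and was not compared.

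AKR1C3 was the most abundant of these genes. It read 154, 140 and 137 TPM with GFP and 88.1, 92.3 and 95.5 with CTNNB1, a fall of 36.0% in the mean with no overlap. With shNT1 it read 82.8, 77.9 and 80.3 TPM and with shAPC 68.7, 77.1 and 69.9. These groups also did not overlap, but the highest shAPC library lay within 1 TPM of the lowest shNT1 library. Group means were 144 ± 9.2, 92 ± 3.7, 80.3 ± 2.4 and 71.9 ± 4.5 TPM for GFP, CTNNB1, shNT1 and shAPC (SD, n = 3). The log2 fold change was -0.64 (SE 0.06, 95% interval -0.77 to -0.51) in the CTNNB1 arm, which passed the test. With the APC hairpin it was -0.16 (SE 0.06, 95% interval -0.29 to -0.03), which did not after adjustment over all genes. Leaving out shAPC replicate 2 gave -0.21 and a call. AKR1C3 was the only member called for the difference between arms, at -0.48 (SE 0.08, 95% interval -0.66 to -0.3).

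AKR1C1 read 33.0, 32.3 and 32.5 TPM with GFP and 19.4, 22.7 and 27.4 with CTNNB1. The CTNNB1 libraries were spread more widely than the GFP libraries and all lay below them. With shNT1 the values were 16.3, 15.6 and 19.6 TPM and with shAPC 18.3, 14.3 and 17.7, so these groups overlapped. The fold changes were -0.49 (SE 0.1, 95% interval -0.72 to -0.26; called) and -0.03 (SE 0.1, 95% interval -0.27 to 0.2; not called). The second changed sign, to 0.02, when libraries were rescaled to a common median. Here and below this means that each library was divided by the median of its ratios to the genes' geometric means. The arms differed by -0.46 with an interval from -0.8 to -0.11, short of a call, and this became a call at -0.56 under that rescaling. It also became one without CTNNB1 replicate 3 (-0.58), shNT1 replicate 3 (-0.55) or shAPC replicate 2 (-0.56).

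AKR1C2 read 7.36, 6.43 and 7.82 TPM with GFP, 5.21, 5.20 and 5.88 with CTNNB1, 3.93, 2.72 and 3.15 with shNT1, and 2.80, 2.33 and 2.55 with shAPC. The groups did not overlap in the CTNNB1 arm, where the fold change was -0.35 (SE 0.09, 95% interval -0.55 to -0.15). That call was lost without GFP replicate 1 (-0.33), GFP replicate 3 (-0.3) or CTNNB1 replicate 2 (-0.32), and when genes of low level were kept in. The APC groups overlapped, and the difference was -0.25 (SE 0.12, 95% interval -0.53 to 0.02).

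The summed level of AKR1C1, AKR1C2, AKR1C3 and the liver enzyme AKR1C4 was also taken. Since TPM divides by gene length, this sum still depends in part on which gene a shared read was given to. It went from 185 ± 9.3 TPM with GFP to 121 ± 8.1 with CTNNB1, a log2 fold change of -0.6 (SE 0.06) that passed the threshold when the sum was fitted in place of its genes. With shNT1 and shAPC it was 101 ± 3.5 and 91.9 ± 2.1 TPM (SD, n = 3), a log2 fold change of -0.14 (SE 0.05) that did not. AKR1C3 stayed between 4.03 and 4.72 times AKR1C1 in the group means of that ratio. All 3 AKR1C genes were higher in GFP than in shNT1, by 1.9 times for AKR1C1, 2.21 for AKR1C2 and 1.79 for AKR1C3. AKR1C3 stood in the order GFP, CTNNB1, shNT1, shAPC without overlap between neighbours. For AKR1C1 the groups other than GFP overlapped in turn, and for AKR1C2 shNT1 and shAPC did.

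The 250 bases before 1 RefSeq start of each AKR1C gene were also aligned (GRCh38.p14). The AKR1C2 start used, which follows chr10:5003858-5004107 on the minus strand, lies inside the annotated gene, and AKR1C3 has a second start that was not aligned. AKR1C2 matched AKR1C1 at 245 of 246 aligned bases (99.6%), and AKR1C3 matched it at 185 of 241 (76.8%).

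The AKR7A genes encode aldehyde reductases known for detoxifying aflatoxin dialdehyde, and AKR7A2 also reduces succinic semialdehyde. AKR7A3 fell by 0.43 on the log2 scale in each arm while AKR7A2 passed the test in neither. AKR7A3 (ENSG00000162482, chr1:19274229-19288770) read 33.9, 38.6 and 40.4 TPM with GFP and 25.8, 28.0 and 29.1 with CTNNB1. It read 47.8, 49.9 and 51.3 TPM with shNT1 and 35.6, 38.1 and 36.1 with shAPC. Neither arm's groups overlapped. The means went from 37.6 ± 3.3 to 27.6 ± 1.7 TPM and from 49.7 ± 1.8 to 36.6 ± 1.3 (SD, n = 3), 26.5% and 26.3% lower. The log2 fold change of -0.43 had a similar error in each arm (95% intervals -0.6 to -0.26 and -0.55 to -0.31), and the arms differed by 0 (SE 0.09, interval -0.2 to 0.2). Unlike AKR1B10 and the AKR1C genes, AKR7A3 was lower in GFP than in shNT1, at 0.758 times its level.

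AKR7A2 (ENSG00000053371, chr1:19302708-19312146) lies 13.9 kb from AKR7A3. It read 30.6, 34.4 and 30.4 TPM with GFP, 30.5, 33.8 and 34.2 with CTNNB1, 35.5, 33.6 and 39.2 with shNT1, and 35.0, 37.7 and 31.8 with shAPC. All neighbouring groups overlapped. Its fold changes were 0.04 (95% interval -0.11 to 0.2) and -0.05 (95% interval -0.22 to 0.12), and the first became -0.02 under rescaling to a common median. The ratio of AKR7A3 to AKR7A2 went from 1.19 ± 0.12 with GFP to 0.842 ± 0.011 with CTNNB1, and from 1.38 ± 0.091 with shNT1 to 1.05 ± 0.07 with shAPC (SD, n = 3). The coding sequences of AKR7A2 and AKR7A3 are 84.6% identical and share 6.81% of 50-base runs. AKR7A3 is 95.5% identical to AKR7L, its neighbour at 0.1 kb, with 31.0% of 50-base runs in common, so reads may be split between those 2 genes. The sum of AKR7A2, AKR7A3 and AKR7L went from 73.1 ± 3.6 to 63.3 ± 3.5 TPM with CTNNB1 and from 90.1 ± 4.2 to 75 ± 3.6 with shAPC (SD, n = 3). Its log2 fold changes of -0.21 and -0.26 (SE 0.06 for both) were called and are smaller than those of AKR7A3 alone. The sum also holds AKR7A2, whose own changes were 0.04 and -0.05. Its smaller fall therefore says nothing of reads split between AKR7A3 and AKR7L, whose sum without AKR7A2 was not fitted. AKR7L averaged 3.67 TPM with GFP, 2.78 with CTNNB1, 4.36 with shNT1 and 3.53 with shAPC.

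AKR1A1 (ENSG00000117448, chr1:45550826-45570049) encodes aldehyde reductase, which acts on a wide range of aldehydes. Its libraries read 89.5, 95.3 and 89.8 TPM with GFP and 88.2, 96.0 and 96.5 with CTNNB1, which overlap. With shNT1 they read 97.5, 91.5 and 102 TPM and with shAPC 109, 107 and 109, all above the controls. AKR1A1 was the only member whose libraries were all higher in a perturbed group. The fold changes were 0.03 (95% interval -0.09 to 0.15) and 0.16 (SE 0.05, 95% interval 0.04 to 0.28), neither called. The first became -0.03 under rescaling to a common median. The second became a call at 0.21 under the same rescaling, at 0.2 without shNT1 replicate 3, and at 0.16 both with a level filter of 5 TPM and with the 4 groups fitted together. The authors' deposited table gives 0.2 for AKR1A1 in the APC arm and lists it as changed.

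Counted together, 7 members could be tested in each arm. In the CTNNB1 arm 5 were called lower (AKR1B10, AKR1C1, AKR1C2, AKR1C3 and AKR7A3), 0 higher and 2 were not called. Of all 11624 genes tested there, 23.5% were called, 7.16% lower and 16.3% higher. The APC arm had 2 called lower, AKR1B10 and AKR7A3, 0 higher and 5 were not called, against 22.1% of 11834 genes called, 14.9% lower and 7.24% higher. Those 2 were the members called lower in both arms, as were 3.24% of the 11556 genes tested in both. Among the 7 tested members, 5 had all CTNNB1 libraries below all GFP libraries (13% of all genes tested, with 43.2% separated in either direction). For the hairpins, 3 had all shAPC libraries below all shNT1 libraries (26.4% of all genes tested, with 40.9% separated in either direction) and AKR1A1 had them above. The difference between arms was called for 1 member, AKR1C3, on the lower side, against 16.1% of 11741 genes in either direction and 2.76% on that side. The median log2 fold change of the tested members was -0.43 and -0.16, beside medians over all genes of 0.0573 and -0.045. When libraries were rescaled to a common median, 49.4% of calls were higher in the CTNNB1 arm in place of 69.5%, and 47.6% in the APC arm in place of 32.8%. These values chose the members, so nothing is read from the counts.

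**Figure D2:**
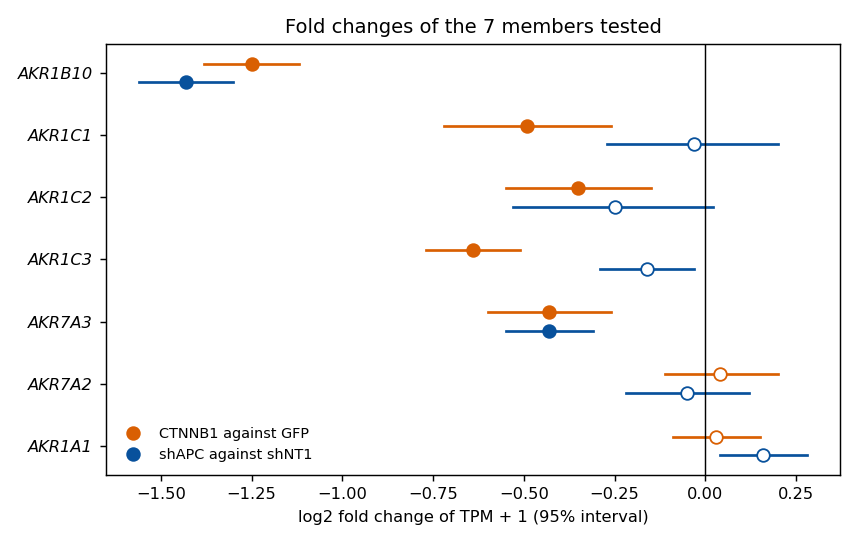
Log2 fold change of the 7 tested genes in the CTNNB1 arm and the APC arm, with 95% intervals from limma, on the log2(TPM + 1) scale; filled points were called and open points were not. AKR1B10 lies lowest in both arms at -1.25 and -1.43, AKR7A3 lies at -0.43 in both, and AKR1C3 lies at -0.64 and -0.16.

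In the authors' deposited table for CTNNB1 against GFP, 6 of the 8 genes are lower at an adjusted p under 0.05 and 0 higher, with AKR1B10 at -1.33, AKR1C3 at -0.72 and AKR7A3 at -0.52. In their deposited table for the APC hairpin 2 are lower, AKR1B10 at -1.4 and AKR7A3 at -0.41, and 1 is higher, AKR1A1. Of the 28008 rows in each authors' deposited table, 9.42% and 9.01% pass that threshold.

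AKR1B10 made up most of the family's RNA in the GFP libraries and the smallest share of it with shAPC. The 8 genes summed to 859 ± 16 TPM with GFP, 490 ± 32 with CTNNB1, 546 ± 29 with shNT1 and 368 ± 7.7 with shAPC (SD, n = 3). AKR1B10 contributed 59.8% ± 0.45 of that with GFP, 43.9% ± 1.0 with CTNNB1, 48.0% ± 0.8 with shNT1 and 26.3% ± 0.32 with shAPC. AKR1A1, whose own level ranged only from 88.2 to 109 TPM, made up 10.7% with GFP and 29.5% with shAPC and was the largest contributor there. The share of AKR1C3 ranged from 14.7% with shNT1 to 19.5% with shAPC.

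**Figure D3:**
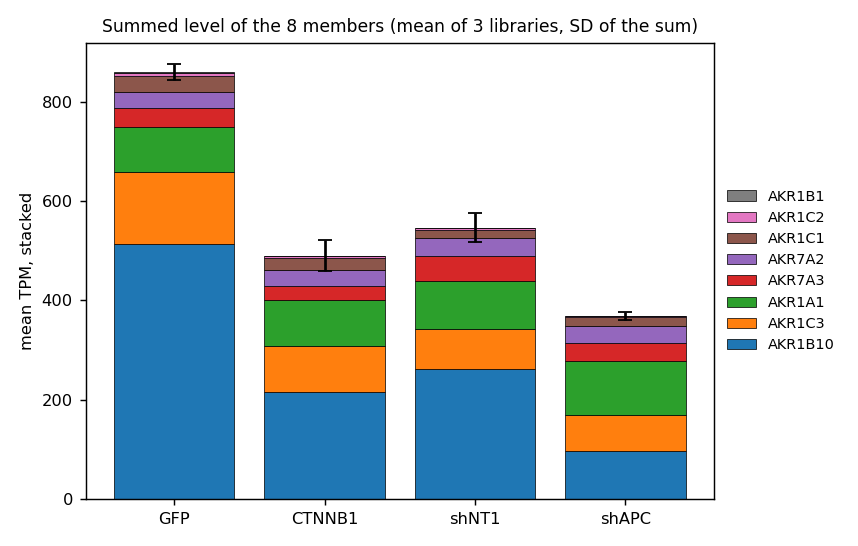
Summed TPM of the 8 genes in each group, stacked by gene (bars start at 0, group means of 3 libraries, error bars are the SD of the sum). The sum is 859 TPM with GFP and 368 with shAPC, and the AKR1B10 segment shrinks from 59.8% to 26.3% of it.

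Across the 12 libraries the log2 levels of the AKR1C genes followed each other, with Pearson r of 0.912 for AKR1C1 with AKR1C2, 0.906 for AKR1C1 with AKR1C3 and 0.898 for AKR1C2 with AKR1C3. AKR1B10 followed AKR1C3 with r of 0.878 and ran against AKR1A1 with r of -0.788. These points share 4 groups and the gap between the controls, so the values are a description. Among 9439 genes averaging at least 5 TPM, those whose levels were most like AKR1B10 were CALB2 (calretinin, r = 0.996), MSN (moesin, 0.992), COL17A1 (a hemidesmosome collagen, 0.99), GSR (glutathione reductase, 0.986) and ANXA2 (annexin A2, 0.983). CALB2 averaged 216 TPM with GFP, 138 with CTNNB1, 151 with shNT1 and 92.8 with shAPC, the same order of groups as AKR1B10. Those most like AKR1C1 were DUSP14 (0.974), KEAP1 (0.953), PSMD3 (a proteasome subunit, 0.951), DCAF13 (0.95) and GSTP1 (a glutathione transferase, 0.948). KEAP1 averaged 42.2, 35.7, 31.4 and 31.9 TPM in the same groups.

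**Figure D4:**
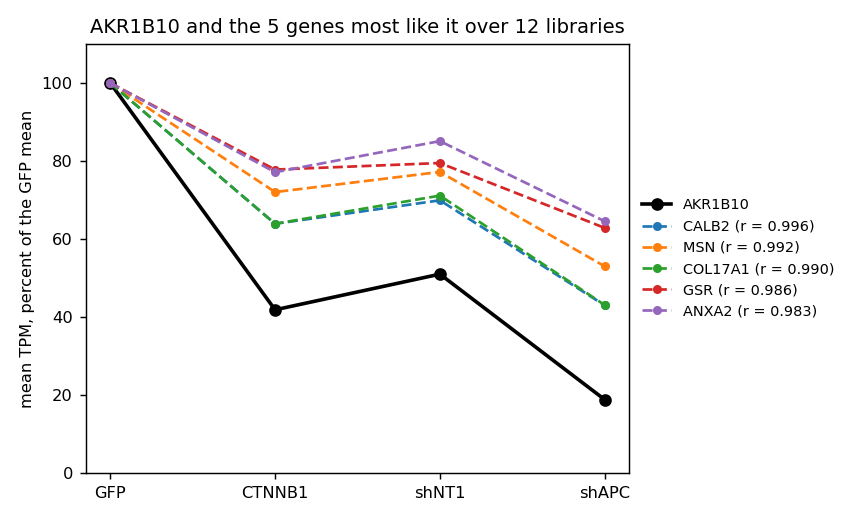
Mean TPM of AKR1B10 (solid line) and of the 5 genes most like it (dashed lines) in each group of 3 libraries, as a percent of the gene's GFP mean; r is over the 12 libraries. All 6 are ordered GFP, shNT1, CTNNB1, shAPC, and AKR1B10 spans the widest range.

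NRF2 target genes outside the family were described next (means ± SD of 3 libraries here and for the lists after). This list was drawn up with earlier results of these data known. Among them was the fall of BLVRB, so BLVRB is given without p-values, as the members are. Nothing is read from the list's counts, which include BLVRB. Of all genes tested, 7.16% were called lower and 16.3% higher in the CTNNB1 arm, and 14.9% and 7.24% in the APC arm. Of 19 tested in the CTNNB1 arm, 15 fell, 0 rose and 4 did not pass the test, with a median log2 fold change of -0.27. BLVRB (biliverdin reductase B) went from 116 ± 5.3 to 47.5 ± 3 TPM, a log2 fold change of -1.27 (SE 0.06). OSGIN1 (an oxidative stress response gene) fell from 17.2 ± 1.1 to 7.47 ± 0.99 TPM (log2 -1.11, SE 0.09, limma adjusted p = 5.5e-05). GCLM, the modifier subunit of the enzyme that starts glutathione synthesis, fell from 79.5 ± 4.8 to 44.1 ± 3.6 TPM (log2 -0.84, SE 0.07, limma adjusted p = 5.1e-05).

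With the APC hairpin, 12 of 19 NRF2 targets fell, 1 rose and 6 did not pass the test, with a median of -0.23. The 13 calls became 9 without a variance trend, 9 with the replicate number as a block and 9 without shNT1 replicate 1, and ranged from 9 to 12 over the fits that left out 1 library. SLC7A11, the cystine importer, fell from 124 ± 13 to 78.5 ± 5.4 TPM (log2 -0.65, SE 0.08, limma adjusted p = 0.00046). ABCC3, a conjugate exporter, fell from 131 ± 5.2 to 90.4 ± 7.1 TPM (log2 -0.53, SE 0.07, limma adjusted p = 0.00042). BLVRB fell from 56.4 ± 6 to 41.9 ± 0.49 TPM (log2 -0.41, SE 0.07). The gene that rose was PGD of the pentose phosphate pathway, named after its value was seen, from 257 ± 3.8 to 294 ± 14 TPM (log2 0.19, SE 0.05, limma adjusted p = 0.024). As with AKR1B10 and the AKR1C genes, BLVRB, OSGIN1 and GCLM were higher with GFP than with shNT1, their shNT1 means being 56.4, 6.21 and 40.4 TPM. Not all targets on the list shared this. SLC7A11 averaged 125 TPM with GFP and 124 with shNT1, ABCC3 122 and 131, and NQO1 506 and 526.

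**Figure D5:**
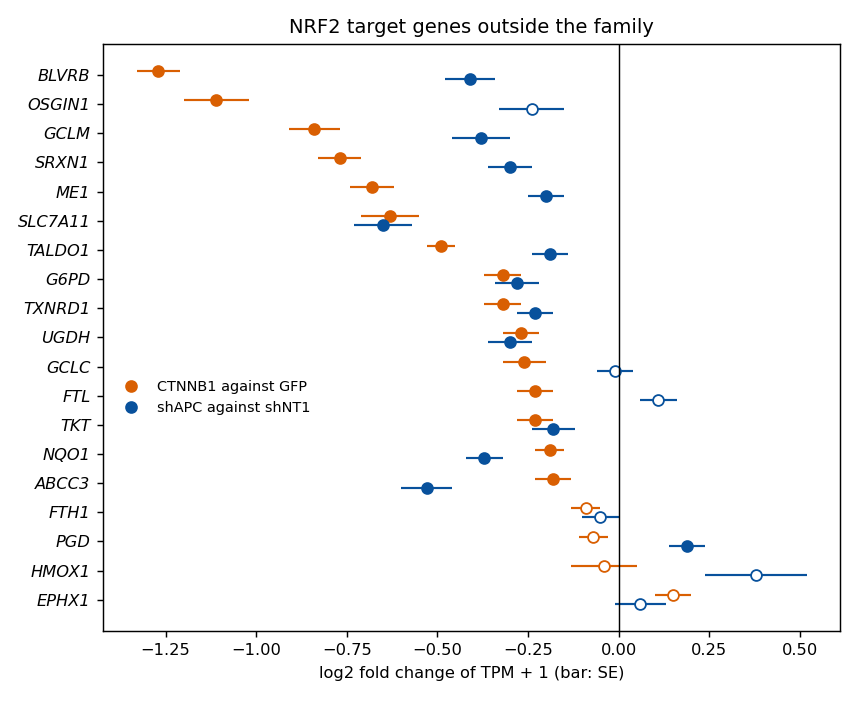
Log2 fold change of the tested NRF2 target genes outside the family in the CTNNB1 arm and the APC arm (log2(TPM + 1) scale, bars are SE); filled points were called and open points were not. In the CTNNB1 arm 15 of 19 are called lower, BLVRB lowest at -1.27, and in the APC arm 12 of 19, SLC7A11 lowest at -0.65. Of all genes tested, 7.16% and 14.9% were called lower in these arms.

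Over the 7 NRF2 regulators tested, 3 fell and 0 rose in the CTNNB1 arm (median -0.09), and 2 fell and 0 rose in the APC arm (median -0.11). The first count was 1 without GFP replicate 1. The second was 0 without shNT1 replicate 1 or shAPC replicate 3, and 1 without shNT1 replicate 2 or shAPC replicate 2. Of all genes tested, 7.16% were called lower and 16.3% higher in the CTNNB1 arm, and 14.9% and 7.24% in the APC arm. Nothing is read from the counts of this list or of the lists below. NFE2L2 averaged 105 TPM with GFP and 109 with CTNNB1 (log2 0.05, SE 0.06, limma adjusted p = 0.57), and this became -0.01 under rescaling to a common median or without CTNNB1 replicate 1. With shNT1 and shAPC it averaged 122 and 104 TPM, a fall of 0.23 on the log2 scale (limma adjusted p = 0.014). That call was lost without shNT1 replicate 1 (limma adjusted p = 0.051), shAPC replicate 2 (limma adjusted p = 0.052) or shAPC replicate 3 (limma adjusted p = 0.058). KEAP1 fell from 42.2 ± 1.1 to 35.7 ± 0.83 TPM in the CTNNB1 arm (log2 -0.23, SE 0.05, limma adjusted p = 0.01), a call lost without GFP replicate 1 (limma adjusted p = 0.052), and was 31.4 and 31.9 TPM in the APC arm (log2 0.03, SE 0.07, limma adjusted p = 0.84). BACH1, a repressor at the same sites, did not pass the test in either arm (log2 0.07 and -0.11, limma adjusted p = 0.6 and 0.23). The partners MAFG (log2 -0.32, SE 0.07, limma adjusted p = 0.0082) and MAFK (log2 -0.24, SE 0.06, limma adjusted p = 0.027) fell in the CTNNB1 arm and MAFK fell in the APC arm (log2 -0.27, SE 0.07, limma adjusted p = 0.017). The first MAFK call was lost without GFP replicate 1, 2 or 3 or CTNNB1 replicate 2 (limma adjusted p = 0.059, 0.086, 0.1 and 0.071). The second was lost without shNT1 replicate 1 or 2 or shAPC replicate 3 (limma adjusted p = 0.051, 0.059 and 0.067).

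Promoter windows of RefSeq (250 bases before to 50 after a start, GRCh38.p14) were searched on both strands for TGACNNNGC, the core of the antioxidant response element that NRF2 binds, and for ATCAAAG, the core bound by TCF/LEF factors, the partners of beta-catenin. No window of a member held both motifs. The table held 10 windows for 7 of the 8 members, with AKR1B10 unmatched. TGACNNNGC occurred in 13.3% of 35116 windows and, among the members, in AKR7A2, with 3 matches. ATCAAAG occurred in 2.62% of windows and, among the members, in 1 window of AKR1C3, at an alternative start and 167 bases before it. These matches are a description of the letters and say nothing of binding. The AKR7A2 sequence before the start, chr1:19312147-19312325 on the minus strand, is shown up to the nearest exon of the neighbouring gene because it was the member window that held the antioxidant core while AKR7A2 RNA passed the test in neither arm. Capitals mark the matches.
AKR7A2: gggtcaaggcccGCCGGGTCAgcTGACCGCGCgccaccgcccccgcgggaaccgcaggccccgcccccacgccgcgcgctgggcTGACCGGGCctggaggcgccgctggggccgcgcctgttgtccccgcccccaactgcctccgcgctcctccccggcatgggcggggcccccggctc

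The remaining aldo-keto reductase superfamily genes were low. Of 10 on the list 9 were in the table, and 3 could be tested in each arm. KCNAB2, a potassium channel beta subunit of the same fold, fell from 3.81 ± 0.28 TPM with GFP to 2.18 ± 0.19 with CTNNB1 (log2 -0.6, SE 0.09, limma adjusted p = 0.0019). It averaged 1.73 ± 0.028 TPM with shNT1 and 2.36 ± 0.12 with shAPC (log2 0.3, SE 0.1, limma adjusted p = 0.063), a difference that was called under rescaling to a common median (limma adjusted p = 0.035) and when the 4 groups were fitted together (limma adjusted p = 0.022). AKR7L did not pass the test in either arm (log2 -0.29 and -0.24, limma adjusted p = 0.12 and 0.092), nor did AKR1E2 (log2 0.14 and 0.17, limma adjusted p = 0.41 and 0.45). The list's medians were -0.29 and 0.17. AKR1C4 averaged 1.04 TPM with GFP, 0.632 with CTNNB1, 0.542 with shNT1 and 0.634 with shAPC, and AKR1D1 was listed at 0 in every library.

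Retinoid genes, which share substrates with AKR1B10, moved in both directions. In the CTNNB1 arm 3 of 11 tested rose, 4 fell and 4 did not pass the test (median -0.1, beside 16.3% higher and 7.16% lower of all genes). Without GFP replicate 2 the calls numbered 3 in place of 7. DHRS9, among those that fell, averaged 3.09 TPM with GFP and 0.955 with CTNNB1. It met the 1 TPM requirement only through its GFP level and was not tested in the APC arm, so nothing is read from its fall. ALDH1A3, which oxidises retinal to retinoic acid, rose from 13.6 ± 1.3 to 31.6 ± 1.5 TPM (log2 1.16, SE 0.08, limma adjusted p = 1.8e-05), and CRABP2, a carrier of retinoic acid, rose from 363 ± 7.2 to 515 ± 21 TPM (log2 0.5, SE 0.04, limma adjusted p = 6.5e-05). RDH11, a retinal reductase, fell from 111 ± 1.4 to 92 ± 7.9 TPM (log2 -0.27, SE 0.06, limma adjusted p = 0.013), a call lost without GFP replicate 2 (limma adjusted p = 0.057). Of 10 in the APC arm, 2 rose, 4 fell and 4 did not pass the test (median -0.18, beside 7.24% higher and 14.9% lower of all genes). These calls numbered 3 in place of 6 without shNT1 replicate 1, shAPC replicate 2 or shAPC replicate 3. CRABP2 rose from 352 ± 6.9 to 507 ± 23 TPM (log2 0.52, SE 0.05, limma adjusted p = 9.6e-05), and ALDH1A1, the most abundant retinal-oxidising gene here, rose from 1030 ± 9.4 to 1400 ± 20 TPM (log2 0.44, SE 0.05, limma adjusted p = 0.00015). ALDH1A3 went from 13.6 ± 0.14 to 11.4 ± 0.86 TPM there (log2 -0.24, SE 0.07, limma adjusted p = 0.037), and this call was lost when low genes were kept in (limma adjusted p = 0.072). It was also lost without shNT1 replicate 1, 2 or 3 (limma adjusted p = 0.095, 0.079 and 0.063) and without shAPC replicate 2 or 3 (limma adjusted p = 0.12 for both).

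Of other genes of aldehyde and carbonyl metabolism, 4 of 20 tested rose in the CTNNB1 arm, 5 fell and 11 did not pass the test. The median was -0.08, and of all genes 16.3% were called higher and 7.16% lower. CBR3, among those that fell, averaged 2.15 TPM with GFP and 0.599 with CTNNB1. It too met the 1 TPM requirement only through its GFP level and was not tested in the APC arm, so nothing is read from its fall. ALDH7A1, which clears lysine-derived semialdehyde, rose from 20.2 ± 0.45 to 33.1 ± 3.8 TPM (log2 0.68, SE 0.08, limma adjusted p = 0.00029). CBR1, a carbonyl reductase of another fold, fell from 51.5 ± 1.6 to 35.1 ± 0.18 TPM (log2 -0.54, SE 0.05, limma adjusted p = 7.7e-05), and ALDH3B1 fell from 17.9 ± 0.64 to 13 ± 1.7 TPM (log2 -0.44, SE 0.09, limma adjusted p = 0.0072). Of 19 in the APC arm, 1 rose, 6 fell and 12 did not pass the test (median -0.06, beside 7.24% higher and 14.9% lower of all genes). The calls numbered 4 in place of 7 without shNT1 replicate 1 or shAPC replicate 2, and 3 without shAPC replicate 3. ALDH3B1 fell from 18.2 ± 0.9 to 11.6 ± 0.81 TPM (log2 -0.61, SE 0.07, limma adjusted p = 0.00034), ALDH3A2, a fatty aldehyde dehydrogenase, fell from 105 ± 3.1 to 80.9 ± 4.5 TPM (log2 -0.37, SE 0.06, limma adjusted p = 0.0015), and ALDH7A1 rose from 29.7 ± 0.58 to 37.1 ± 3.2 TPM (log2 0.31, SE 0.07, limma adjusted p = 0.01).

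Some genes on the steroid and prostaglandin list share substrates with the AKR1C enzymes. Of the list, 3 of 16 tested rose in the CTNNB1 arm, 5 fell and 8 did not pass the test. The median was -0.01, beside 16.3% higher and 7.16% lower of all genes. The calls numbered 5 in place of 8 without GFP replicate 1, 2 or 3 or CTNNB1 replicate 2. HPGD, which inactivates prostaglandins, fell from 19.2 ± 1.3 to 10.7 ± 0.42 TPM (log2 -0.78, SE 0.07, limma adjusted p = 6.7e-05) and in the APC arm from 14.5 ± 1.2 to 7.21 ± 0.21 TPM (log2 -0.91, SE 0.08, limma adjusted p = 4.9e-05). HSD17B2, which inactivates oestradiol and testosterone, fell from 62.4 ± 2 to 42.7 ± 3.7 TPM (log2 -0.54, SE 0.07, limma adjusted p = 4e-04) and in the APC arm from 65.5 ± 3.1 to 30 ± 1.3 TPM (log2 -1.1, SE 0.06, limma adjusted p = 2e-06). SRD5A3 rose with CTNNB1 from 6.08 ± 0.35 to 7.91 ± 0.29 TPM (log2 0.33, SE 0.07, limma adjusted p = 0.011). Of 16 in the APC arm, 1 rose, 4 fell and 11 did not pass the test (median -0.08, beside 7.24% higher and 14.9% lower of all genes). These calls numbered 3 in place of 5 without shAPC replicate 1, 2 or 3. The gene that rose was HSD17B12, from 324 ± 8.2 to 362 ± 13 TPM (log2 0.16, SE 0.05, limma adjusted p = 0.046), a call lost when low genes were kept in (limma adjusted p = 0.061). It was lost also without shNT1 replicate 1 (limma adjusted p = 0.14) or 2 (0.13) and without shAPC replicate 1 (0.058), 2 (0.15) or 3 (0.085).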

How the data were processed

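RNA-seq of 12 HT-29 libraries was aligned with STAR 2.7.3a to hg38, per the submitters' processing notes, which also name limma. The annotation, the quantification tool and the handling of reads shared by like genes are not given in the sources used here. The authors deposited TPM per gene for all libraries (25528 rows, of which 27 have dates for names), and for each comparison a limma table with log2 fold changes, p-values and adjusted p-values and a B score, which the authors computed and which were read for the members and for the number of calls. Library totals were not used, and the depth per sample is unknown.

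Values were taken as log2(TPM + 1). Genes with a mean of at least 1 TPM over the libraries compared were fitted with limma 3.58.1 (R 4.3.3) with a variance trend, each arm on its own 6 libraries and the difference between arms as a contrast over all 12. P-values were adjusted over all genes tested, two-sided, and a gene is called at an adjusted p under 0.05. The fit was tested on simulated data. Libraries of a group correlated at r from 0.9912 to 0.9974, and no pair was identical.

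The members and gene lists were chosen with earlier results of these data known, among them the fall of AKR1B10 and of BLVRB. Named by rule were all members, the superfamily genes in the table, NFE2L2, KEAP1 and BACH1, the perturbed genes with AXIN2 and LGR5, up to 3 called genes of each other list with the largest change at a mean of at least 5 TPM, and the 5 genes most like AKR1B10 and AKR1C1. Sequences are RefSeq promoter windows (GRCh38.p14) and GENCODE v29 coding sequences, aligned with Biopython 1.88. Alternatives were another pseudocount, other level filters, rescaling to a common median (of the ratios to each gene's geometric mean), a replicate block, no variance trend, 1 fit of 4 groups and leaving out each library.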

Additional observations from a re-analysis of the deposited data

Results flagged for a closer look

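AKR1C3 was the member whose fold change differed between the arms by the contrast itself, at -0.48 on the log2 scale (CTNNB1 arm minus APC arm), falling with CTNNB1 and not called with the APC hairpin. All genes together differed between arms by a median of 0.108 before rescaling, and the values here include that shift.

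Of 34 named genes tested this way 15 differed, 6 with a positive and 9 with a negative difference (limma, Benjamini-Hochberg adjusted over all genes). Over all genes tested, 16.1% differed, 13.3% with a positive and 2.76% with a negative difference. Many of the named genes were picked for a large called change in 1 arm. That favours a difference between arms and small p-values for it, so the p-values below are only a description. Nothing is read from the count of genes that differed. Among NRF2 targets and regulators these were BLVRB at -0.86 (listed with its fall known, so without a p-value), OSGIN1 at -0.87 (adjusted p = 0.00099), GCLM at -0.46 (adjusted p = 0.013), ABCC3 at 0.35 (adjusted p = 0.012) and NFE2L2 at 0.28 (adjusted p = 0.029). Among retinoid genes they were ALDH1A3 at 1.4 (adjusted p = 5.3e-06), ALDH1A1 at -0.6 (adjusted p = 0.0002) and RDH11 at -0.28 (adjusted p = 0.04). In carbonyl, steroid and prostaglandin metabolism they were ALDH7A1 at 0.37 (adjusted p = 0.032), CBR1 at -0.3 (adjusted p = 0.043), HSD17B2 at 0.56 (adjusted p = 0.0011) and SRD5A3 at 0.4 (adjusted p = 0.026). KCNAB2 differed by -0.89 (adjusted p = 0.00047), and AXIN2, which rose in both arms, by -0.56 (adjusted p = 0.00057). The calls of ALDH7A1, SRD5A3 and NFE2L2 were lost under rescaling to a common median, and over the 12 fits that left out 1 library each, the call was lost in 6 for ALDH7A1, 10 for CBR1, 10 for RDH11, 5 for SRD5A3 and 7 for NFE2L2. With the replicate number as a block these 5 calls were lost too (adjusted p = 0.098 for CBR1, 0.052 for ALDH7A1, 0.06 for SRD5A3, 0.06 for NFE2L2 and 0.071 for RDH11). Keeping low genes in ended those of CBR1, ALDH7A1 and RDH11, and a fit without a variance trend those of CBR1, NFE2L2 and RDH11. Vector, collection day and doxycycline differ between the arms and cannot be told apart in these differences.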

How the results depend on the processing

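AKR1B10 and AKR7A3 kept their fall and call in both arms under every alternative run, AKR1B10 ranging over left-out libraries from -1.32 to -1.21 and from -1.47 to -1.37. Rescaling to a common median turned small differences that were not called: AKR1A1 to -0.03, AKR7A2 to -0.02 and NFE2L2 to -0.01 in the CTNNB1 arm, AKR1C1 to 0.02 in the APC arm, and AKR7A2 to -0.02 and AKR7A3 to -0.11 between arms. A pseudocount of 0.1 left the AKR7A3 difference between arms at 0. Rescaling moved the all-gene medians from 0.057 to -0.002 and from -0.045 to 0.003.

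Over left-out libraries, the differences that changed sign were AKR1C1 (-0.1 to 0.07), AKR7A2 (-0.11 to 0.01), KEAP1 (-0.03 to 0.11) and RDH11 (-0.01 to 0.06) in the APC arm, NFE2L2 (-0.01 to 0.09) and BACH1 (-0.01 to 0.17) in the CTNNB1 arm, and AKR7A3 (-0.07 to 0.05) between arms. Genes called ranged from 1499 to 3190 in the CTNNB1 arm (2730 with all libraries), from 1484 to 2252 in the APC arm (2615) and from 995 to 2143 between arms (1885). Counts more than 1.5 times lower came without GFP replicate 1 (1617), 2 (1499) or 3 (1705) or CTNNB1 replicate 2 (1760) in the CTNNB1 arm, and without shAPC replicate 2 (1646) or 3 (1484) in the APC arm. Between arms they came without GFP replicate 1 (1092) or 2 (995) or shAPC replicate 2 (1246) or 3 (1021). These fits hold fewer samples. List genes called in the APC arm ranged from 19 to 30 (33 with all libraries), falling to 20 without shNT1 replicate 1, 21 without shAPC replicate 2 and 19 without shAPC replicate 3, and in the CTNNB1 arm from 32 to 44 (43). Members called between arms ranged from 1 to 2, and were 2 under rescaling, when AKR1C1 joined AKR1C3; the cause was not tested.

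Whether the replicate numbers pair the samples was not settled. Deviations of same-numbered libraries correlated at 0.08 to 0.21 in the CTNNB1 arm (mean 0.14, against -0.07 for libraries of different numbers). In the APC arm they correlated at -0.21 to 0 (mean -0.12, against 0.06). The deviations are taken from the group means, so the mean for different numbers largely follows from the other and is no separate reference. With the replicate number as a block, genes called were 2895, 1767 and 1145 in the CTNNB1 arm, the APC arm and between arms. Without it they were 2730, 2615 and 1885. Members called stayed at 5, 2 and 1.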
